A study of Homo sapiens with 9 samples.

Results

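The subject of this report is CNIH1, a cargo receptor of the endoplasmic reticulum (ER), with its relative CNIH4 and 8 genes of the COPII coat, the protein shell that buds vesicles from the ER: SAR1A, SAR1B, SEC23A, SEC23B, SEC24A, SEC13, SEC31A and SEC31B. The 10 genes were taken by NCBI Gene ID from the 28395 genes of the count tables. CNIH1 was chosen because its level stood above the control with one colorant and below it with the other, so its values here are a description and carry no test. The other 9 genes were added for their role, with earlier results of these data known.

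The cells were differentiated Caco-2, an established human colon carcinoma line whose layers take on enterocyte-like traits in culture. After 24 h with 10 µM carmine, with 20 µM carminic acid or untreated (control), RNA of 3 samples per group, lettered A, B and C, was sequenced. Carminic acid is a red dye made by cochineal insects; in carmine it is bound to aluminium. The colorants were thus compared at unequal concentrations, and only carmine brought the metal. The labels do not say that the samples of a group were separate cultures, so p-values measure the spread among these samples only, and that spread may be technical.

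Proteins that are to leave the ER are gathered into COPII vesicles. The GTPase SAR1, once loaded with GTP, inserts into the ER membrane and recruits the inner coat of SEC23 and SEC24, where SEC24 binds cargo and SEC23 stimulates GTP hydrolysis by SAR1. The outer coat of SEC13 and SEC31 then cross-links the inner coat into a cage, and membrane receptors such as the cornichon proteins link cargo to the inner coat. In the intestine the pathway is known for the export of chylomicrons, which depends on SAR1B.

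All 10 genes passed the filter on low counts, with 344 to 21357 counts per gene and library. Libraries held 54871018 to 57581301 counts each. Carmine library C stood apart from the other 8 on the first principal component of all tested genes (34.4, against −19.4 to 14.5, with 20.9% of the variance). Its deviations from the mean of the libraries rose with the GC content of transcripts (Spearman 0.503 across genes, against −0.439 and −0.432 in carmine libraries A and B), and such correlations ranged from −0.508 to 0.563 over all libraries. Over all tested genes, fold changes with carmine fell with coding length (Spearman −0.369) and fold changes with carminic acid rose with GC content (0.482); genes are not independent replicates, and this is a description. Mitochondrial genes took 0.974% to 1.30% of counts in carmine libraries and 1.24% to 2.08% in carminic acid libraries, against 1.94% to 2.51% in control libraries; their part in the results was not tested. Of 8 enterocyte markers, KRT20 had 0 counts and the others were present, with VIL1 at 1120 to 1316 CPM (counts scaled to the size of the library). The markers PTPRC (8 counts in all libraries together), DCN (5) and MUC2 (3), of immune cells, fibroblasts and goblet cells, were near 0. COL1A1 (93.1 to 149 CPM) and CD68 (303 to 383 CPM), also on those lists, were not. Nor were the goblet cell markers TFF3 (12.8 to 25.2 CPM) and FCGBP (7.28 to 11.4 CPM). The fibroblast markers COL3A1 (2.95 to 5.49 CPM) and PDGFRB (4.96 to 6.62 CPM) were present too. The immune marker CD3E had 0.26 to 0.62 CPM. Of the endothelial markers, PECAM1 had 9.46 to 12.5 CPM, VWF 0.814 to 1.37 CPM and CDH5 0.10 to 0.21 CPM. In bulk RNA, fewer cells of a type and less RNA per cell cannot be told apart.

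CNIH1 (chromosome 14, GRCh38 chr14:54423561-54441374, minus strand) is a membrane protein whose Drosophila relative, cornichon, escorts a growth factor of the TGF-alpha kind out of the ER. It had 89.7, 87.5 and 88.8 CPM in carmine libraries A, B and C, 60.0, 58.1 and 64.2 CPM in carminic acid libraries, and 65.1, 69.9 and 71.7 CPM in control libraries. All carmine libraries lay above all others, and all carminic acid libraries lay below all controls. The levels averaged 88.6 ± 1.10 CPM with carmine, 60.8 ± 3.09 CPM with carminic acid and 68.9 ± 3.43 CPM in the control (SD, n = 3 each). These are log2 fold changes of 0.36 (standard error 0.0712) for carmine against control, −0.18 (0.0714) for carminic acid against control, and 0.54 (0.0714) for carmine against carminic acid. The carmine and carminic acid values share the same control libraries. Without carmine library C the carmine value was 0.37.

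The pattern that chose CNIH1, with carmine above and carminic acid below the control and no overlap of the groups, was held by 36 of the 16017 tested genes, which is 0.225%. The mirrored pattern was held by 21 genes (0.131%). CNIH1 has an annotated transcript of 4793 bases with 36.7% GC, at the 3.3 percentile of GC among tested genes, and a coding sequence of 432 bases, at the 6.4 percentile. When trends of the counts with GC content and length of the annotated transcript, fitted per library, were removed, the log2 fold change was 0.38 with carmine and −0.043 with carminic acid. With those of the coding sequence removed, a setting chosen after the data were seen, it was 0.30 with carmine and −0.13 with carminic acid. The carmine value kept most of its size under both corrections. The carminic acid value shrank to less than its standard error under the correction for the transcript. After that correction, log2 CPM of CNIH1 were 6.33, 6.31 and 6.65 in carmine libraries A, B and C. In control libraries A, B and C they were 6.06, 6.09 and 6.02. Carmine library C thus stood highest and added to the corrected carmine value, and these values too carry the choice of CNIH1.

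**Figure D1:**
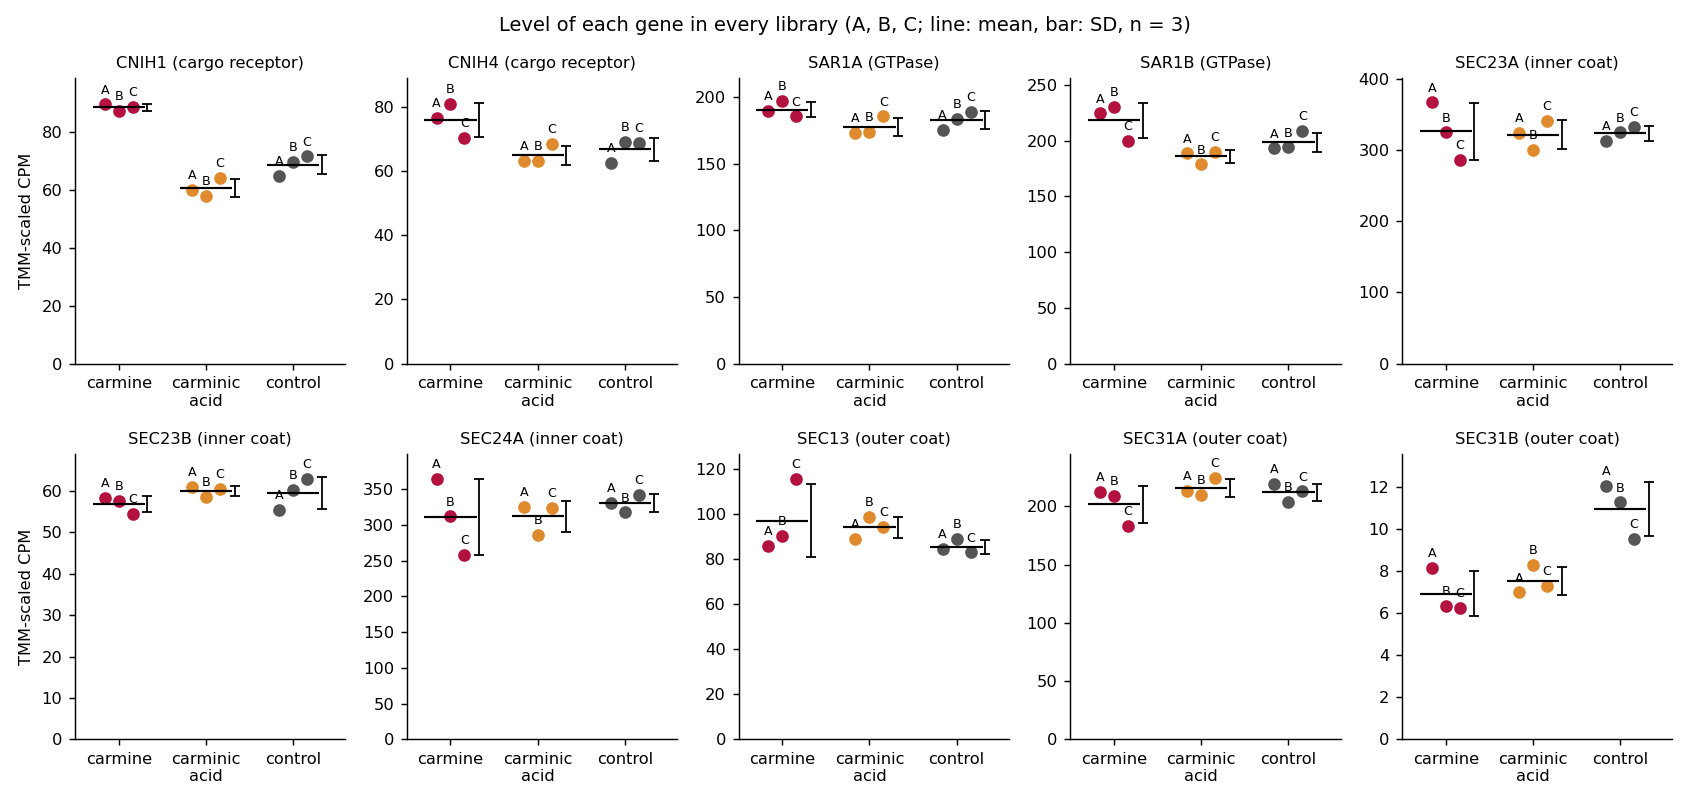
TMM-scaled CPM (vertical axes, from 0) of the 10 genes in each library, with carmine in red, carminic acid in orange and control in grey; letters name the libraries, lines the mean and bars the SD (n = 3). CNIH1 sits at 87.5 to 89.7 CPM with carmine, above every other library, and SEC31B sits below the control with either colorant.

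CNIH4 (chr1:224356803-224379452, plus strand), the other cornichon of the set, is known in human cells for the ER export of G protein-coupled receptors. It had 76.5, 80.9 and 70.3 CPM in carmine libraries A, B and C, 63.2, 63.0 and 68.3 CPM in carminic acid libraries, and 62.5, 69.0 and 68.6 CPM in control libraries. The carmine libraries lay above all others, library C by the least, and the carminic acid libraries overlapped the control. The log2 fold change was 0.19 (standard error 0.0778, adjusted p = 0.429 by edgeR's quasi-likelihood test) with carmine and −0.042 (0.0779, adjusted p = 0.882) with carminic acid. CNIH4 thus pointed the same way as CNIH1 with carmine, at a smaller size that did not pass the test.

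Levels of different genes can be set side by side only per length. Per kilobase of coding sequence, CNIH1 had 205 ± 2.54 CPM with carmine, 141 ± 7.16 with carminic acid and 159 ± 7.95 in the control. CNIH4 had 182 ± 12.7, 155 ± 7.19 and 160.0 ± 8.75 in the same order. On this scale CNIH1 and CNIH4 were close in the control. Per kilobase of the annotated transcript, CNIH1 had 18.5 ± 0.229 CPM with carmine, 12.7 ± 0.645 with carminic acid and 14.4 ± 0.716 in the control, and CNIH4 had 18.4 ± 1.29, 15.7 ± 0.727 and 16.2 ± 0.885 in the same order of groups. CNIH1 made up 50.2%, 48.2% and 52.1% of the pair's CPM per kilobase in carmine libraries A, B and C, 45.0%, 44.3% and 44.7% in carminic acid libraries, and 47.3%, 46.6% and 47.4% in control libraries. The share was higher in every carmine library and lower in every carminic acid library than in any control library, a description that carries the choice of CNIH1 with it.

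SAR1A (chr10:70147289-70170514, minus strand) and SAR1B (chr5:134601149-134632828, minus strand) encode the GTPases that start the coat, and loss of SAR1B in humans causes chylomicron retention disease. The pair matters for the counting, since near-identical stretches could let reads of one gene be counted for the other. Their coding sequences have 594 bases each and 77.8% identity, and the longest run they share is 17 bases. The 90 bases around that run, positions 174 to 263 of either coding sequence in GENCODE v29, are shown with the 18 bases that differ in capitals.
SAR1A: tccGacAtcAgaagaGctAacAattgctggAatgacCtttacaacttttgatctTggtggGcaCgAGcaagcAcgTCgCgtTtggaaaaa
SAR1B: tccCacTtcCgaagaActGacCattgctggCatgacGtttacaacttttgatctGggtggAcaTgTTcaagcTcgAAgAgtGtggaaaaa
The longest shared runs of the other pairs were 13 bases for CNIH1 and CNIH4 (50.7% identity), 23 for SEC23A and SEC23B (75.4%) and 17 for SEC31A and SEC31B (59.0%). Read length and the handling of reads with several matches were not given in the sources used here.

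SAR1A had 189.5, 197 and 186 CPM in carmine libraries A, B and C, 173, 174 and 186 CPM in carminic acid libraries, and 176, 184 and 189 CPM in control libraries. Both colorants overlapped the control, with log2 fold changes of 0.060 with carmine (standard error 0.0651, adjusted p = 0.736 by edgeR) and −0.043 with carminic acid (0.0651, adjusted p = 0.853). SAR1B had 224, 229.9 and 200.1 CPM in carmine libraries, 189, 179 and 190.1 CPM in carminic acid libraries, and 193, 194 and 209 CPM in control libraries. Carmine libraries A and B stood above the control and library C within it, while the carminic acid libraries all lay below the control by small margins.

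The log2 fold change of SAR1B was 0.14 with carmine (standard error 0.0714, adjusted p = 0.478 by edgeR) and −0.096 with carminic acid (0.0714, adjusted p = 0.738). Between the colorants, at unequal concentrations, it was 0.23 (0.0714, adjusted p = 0.407). Without carmine library C, CNIH4 and SAR1B passed the threshold between the colorants, with log2 fold changes of 0.29 (adjusted p = 0.0292 by edgeR) and 0.30 (adjusted p = 0.0162), in a fit that called 4.21% of all tested genes. With all 9 libraries and transcript trends removed, the 2 values were 0.21 (adjusted p = 0.159 by edgeR) and 0.19 (adjusted p = 0.188). With coding trends removed they shrank to 0.048 (adjusted p = 0.886 by edgeR) and 0.071 (adjusted p = 0.787). SAR1B made up 51.5%, 51.1% and 49.1% of the SAR1 CPM per kilobase in carmine libraries, 49.4%, 47.9% and 47.9% in carminic acid libraries, and 49.6%, 48.6% and 49.7% in control libraries. Shares of both colorants overlapped the control (two-sided exact permutation test, p = 0.3 for carmine and p = 0.2 for carminic acid; 3 against 3 cannot go below 0.1).

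**Figure D2:**
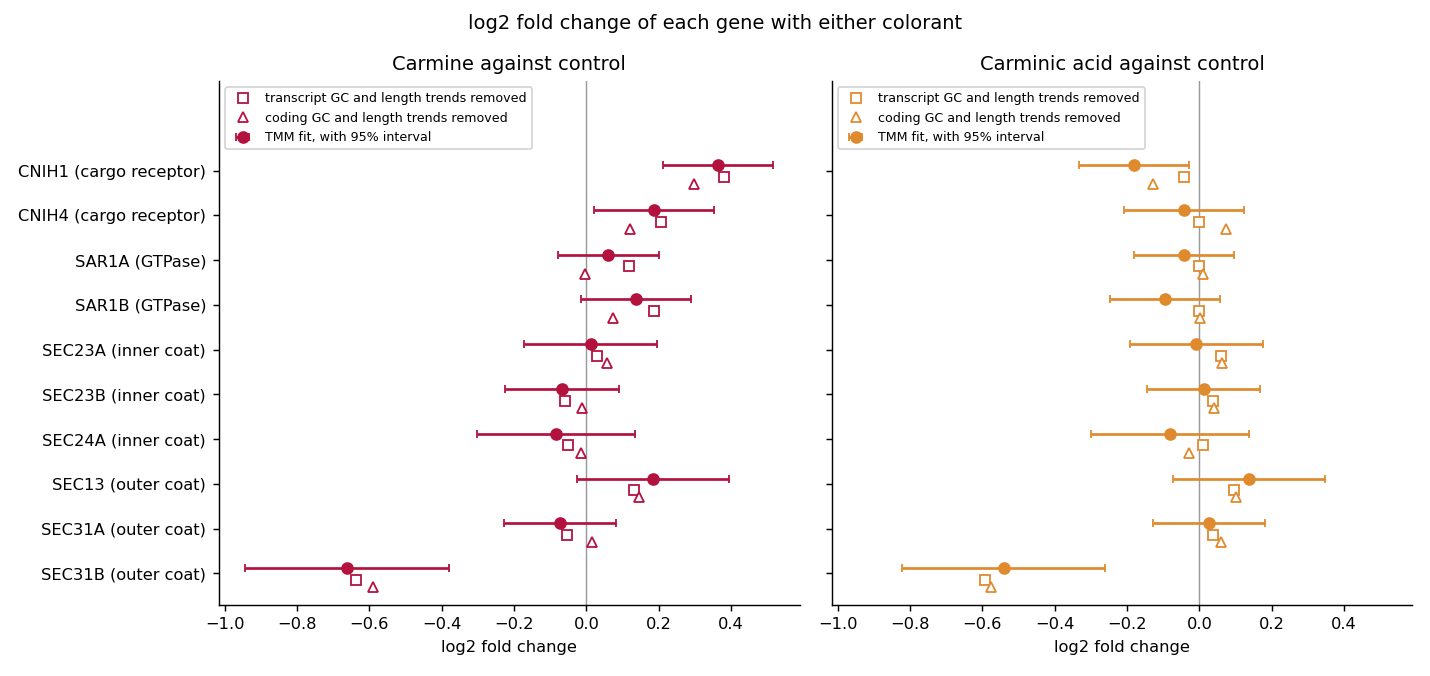
Log2 fold change (horizontal axes) of each gene for carmine against control (left) and carminic acid against control (right); filled circles with 95% intervals are the TMM-scaled edgeR fit, open squares the fit with transcript GC and length trends removed, open triangles the fit with coding trends removed. The intervals are not adjusted for the number of genes tested. CNIH1 lies at 0.36 and −0.18, and as these values chose it, its intervals carry no test. SEC31B lies at −0.66 and −0.54. The intervals of SAR1, SEC23, SEC24A, SEC13 and SEC31A include 0 in both panels. That of CNIH4 excludes 0 with carmine only (0.020 to 0.35), where its adjusted p was 0.429 by edgeR.

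SEC23A (chr14:39031919-39103235, minus strand) and SEC23B (chr20:18507548-18561415, plus strand) are the GTPase-activating subunits of the inner coat; inherited defects of SEC23A affect the skull and those of SEC23B the red cell lineage. SEC23A had 367, 325 and 287 CPM in carmine libraries A, B and C, 324, 299.8 and 341 CPM in carminic acid libraries, and 313, 325 and 333 CPM in control libraries. The carmine libraries spread to both sides of the control, with A highest and C lowest of all 9. SEC23B had 58.2, 57.5 and 54.5 CPM with carmine, 60.9, 58.5 and 60.4 CPM with carminic acid, and 55.3, 60.1 and 62.9 CPM in the control, and its groups overlapped. The log2 fold changes with carmine were 0.012 for SEC23A (95% interval −0.17 to 0.20) and −0.067 for SEC23B (−0.22 to 0.091), and with carminic acid they were −0.0084 (−0.19 to 0.18) and 0.011 (−0.15 to 0.17). Adjusted p-values of these 4 tests by edgeR were 0.970, 0.741, 0.979 and 0.967 in that order. SEC23B made up 17.8% ± 1.32 of the SEC23 CPM per kilobase with carmine, 18.7% ± 0.736 with carminic acid and 18.5% ± 0.511 in the control (SD, n = 3 each; two-sided exact permutation p = 0.7 for either colorant).

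SEC24A (chr5:134648382-134727909, plus strand), a cargo-binding subunit of the inner coat, had 364, 312 and 258 CPM in carmine libraries A, B and C, 326, 287 and 324 CPM in carminic acid libraries, and 331, 318 and 343 CPM in control libraries. As for SEC23A, carmine library A was the highest and carmine library C the lowest of the 9. The log2 fold change was −0.085 with carmine (95% interval −0.30 to 0.13, adjusted p = 0.765 by edgeR) and −0.082 with carminic acid (−0.30 to 0.14, adjusted p = 0.817). Without carmine library C the carmine value turned to 0.038.

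SEC13 (chr3:10300931-10321112, minus strand) is an outer coat subunit that also belongs to the nuclear pore and to GATOR2, a regulator of mTORC1. It had 85.9, 90.4 and 116 CPM in carmine libraries A, B and C, 89.3, 98.8 and 94.5 CPM in carminic acid libraries, and 84.7, 89.2 and 83.1 CPM in control libraries. Carmine library C alone stood far above the control, and all carminic acid libraries lay just above it. The log2 fold change was 0.18 with carmine (standard error 0.0980, adjusted p = 0.487 by edgeR) and 0.14 with carminic acid (0.0980, adjusted p = 0.731). Without carmine library C the carmine value was 0.046. SEC13 has the shortest annotated transcript of the 10 genes (1479 bases) and, with SEC31B, the highest GC content (53.7%); with the transcript trends removed its log2 fold change was 0.13 with carmine and 0.096 with carminic acid.

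SEC31A (chr4:82818509-82900569, minus strand) and SEC31B (chr10:100486647-100519861, minus strand) are the paralogs that pair with SEC13. SEC31A had 213, 209 and 183 CPM in carmine libraries A, B and C, 213, 209.9 and 225 CPM in carminic acid libraries, and 219, 204 and 213 CPM in control libraries. Its groups overlapped, with log2 fold changes of −0.072 with carmine (95% interval −0.23 to 0.083, adjusted p = 0.712 by edgeR) and 0.026 with carminic acid (−0.13 to 0.18, adjusted p = 0.926). The lncRNA gene THAP9-AS1 overlaps SEC31A on the same strand and had 13536 counts in all libraries together, so how the authors' counting treated reads in the overlap could bear on SEC31A.

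SEC31B had 8.16, 6.34 and 6.27 CPM in carmine libraries A, B and C, 6.99, 8.28 and 7.31 CPM in carminic acid libraries, and 12.1, 11.3 and 9.55 CPM in control libraries. Every library with a colorant lay below every control library. The levels averaged 6.92 ± 1.07 CPM with carmine, 7.53 ± 0.674 CPM with carminic acid and 10.96 ± 1.28 CPM in the control (SD, n = 3 each), from 344 to 673 counts per library. The log2 fold change was −0.66 with carmine (standard error 0.132, 95% interval −0.94 to −0.38, adjusted p = 0.118 by edgeR) and −0.54 with carminic acid (0.131, −0.82 to −0.26, adjusted p = 0.681), and both share the control libraries. Neither passed the threshold of 0.05 in the edgeR fit, while DESeq2 called the carmine value (adjusted p = 0.00166) and not that of carminic acid (0.0756). Other settings that called it are listed with the dependence on processing. Its paralog SEC31A made up 96.6%, 97.3% and 96.9% of the SEC31 CPM per kilobase in carmine libraries, 97.1%, 96.5% and 97.1% in carminic acid libraries, and 95.2%, 95.2% and 96.0% in control libraries. Both colorants gave a higher SEC31A share than any control library (two-sided exact permutation p = 0.1 each, the smallest that 3 against 3 allows). Between the colorants SEC31B differed by −0.12 (95% interval −0.40 to 0.16).

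**Figure D3:**
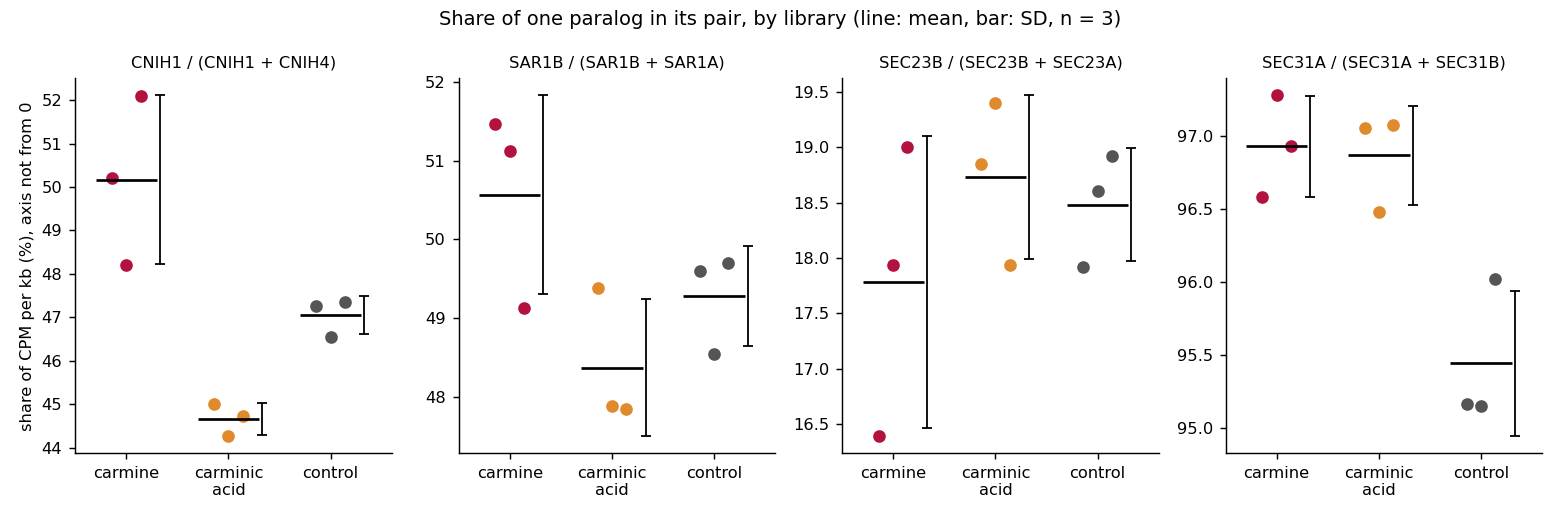
Share of CPM per kilobase of annotated transcript (vertical axes, in percent, not from 0) taken by CNIH1, SAR1B, SEC23B and SEC31A in their pairs, by library, with carmine, carminic acid and control from left to right; lines are means and bars SDs (n = 3). The CNIH1 share averaged 50.2% with carmine, 44.7% with carminic acid and 47.1% in the control, and the SEC31A share 96.9%, 96.9% and 95.4%.

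In the fit of all genes edgeR called 0 of the 9 genes other than CNIH1 (adjusted p under 0.05): 0% of all tested genes were called with carmine against control, 0% with carminic acid against control and 0.00624% between the colorants. At an unadjusted p under 0.05 the counts were 2 with carmine (CNIH4 higher, SEC31B lower; 11% of all tested genes), 1 with carminic acid (SEC31B lower; 6.43%) and 2 between the colorants (CNIH4 and SAR1B, higher with carmine; 8.9%). DESeq2 called 1, 0 and 0 of them (0.506%, 0.0375% and 0.481% of all tested genes), and limma-voom with quality weights 1, 1 and 0 (0.268%, 0.212% and 0.0812%), each time SEC31B. Groups without overlap were seen for 2 of 9 with carmine against control (CNIH4 higher, SEC31B lower; 15% of all tested genes), for 3 of 9 with carminic acid against control (SEC13 higher, SAR1B and SEC31B lower; 20.8%) and for 4 of 9 between the colorants (CNIH4, SAR1A and SAR1B higher and SEC23B lower with carmine; 13.1%). Between the colorants, the nearest libraries of SAR1A both rounded to 185.5 CPM. Those of SEC23B had 58.24 CPM with carmine and 58.47 CPM with carminic acid. The median log2 fold change of the 9 was 0.012 with carmine and −0.042 with carminic acid, beside 0.0066 and −0.0078 over all tested genes.

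Fold changes within the set were set beside the length and GC content of the genes. With carmine the cargo receptors and GTPases, with 417 to 594 coding bases, had log2 fold changes of 0.060 to 0.36, and the coat subunits with 2295 bases or more had −0.66 to 0.012, with SEC13 (1104 bases) at 0.18. Over the 9 genes without CNIH1, the Spearman correlation of the fold change with coding length was −0.895 with carmine and 0.0669 with carminic acid (−0.912 and 0.176 with CNIH1, whose values chose it), beside −0.369 and −0.0525 over 14039 genes with an annotated coding sequence. With transcript length it was −0.333 with carmine and −0.783 with carminic acid over the 9 genes, beside −0.257 and −0.104 over 15453 genes. With GC content it was −0.200 with carmine and 0.350 with carminic acid, beside 0.145 and 0.482. These are descriptions over few genes. Roles and lengths coincide in this set, so small receptors and GTPases against large coat subunits and short against long coding sequences cannot be told apart. With the coding trends removed, 5 of the 9 genes other than CNIH1 had positive values with carmine, at −0.59 to 0.15. The number was the same as without, but not the genes: SAR1A turned to −0.0051 and SEC31A to 0.014. CNIH4 (0.12), SAR1B (0.073) and SEC13 (0.15) came lower than without the correction. SEC23A (0.058), SEC23B (−0.011), SEC24A (−0.016) and SEC31B (−0.59) came higher.

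**Figure D4:**
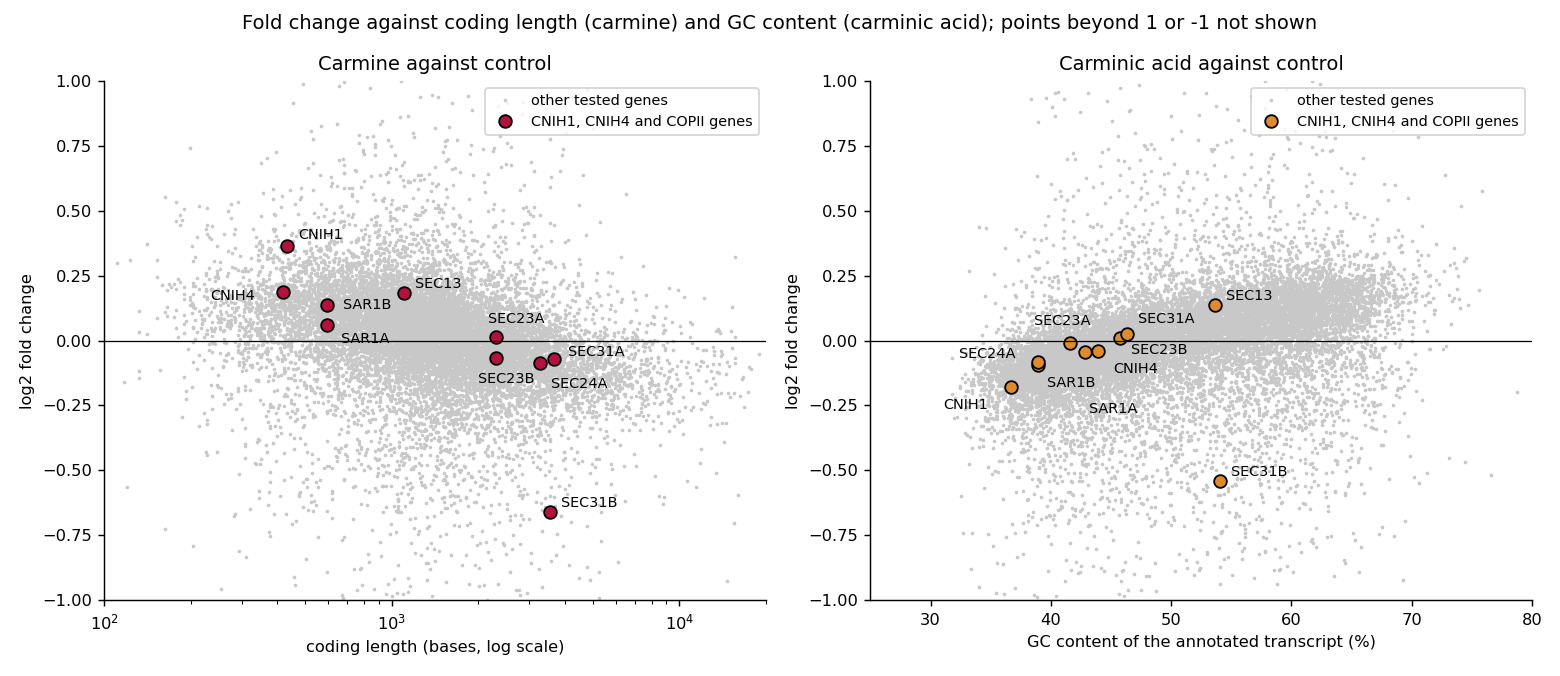
Log2 fold change (vertical axes) with carmine against coding length (left, log scale, in bases) and with carminic acid against GC content of the annotated transcript (right, in percent); grey points are tested genes and large points the 10 genes. CNIH1 lies at 432 coding bases with 0.36 on the left and at 36.7% GC with −0.18 on the right. SEC31B lies far below the rest of the 10 genes in both, though not below all grey points. Points beyond the axis limits are not shown.

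Across the 9 libraries CNIH4 and the GTPases had higher correlations with the level of CNIH1 than the coat subunits had. The Pearson correlation of log2 CPM with CNIH1 was 0.87 for CNIH4, 0.86 for SAR1B and 0.81 for SAR1A. It was 0.17 for SEC23A, 0.19 for SEC13, −0.047 for SEC24A, −0.36 for SEC31B, −0.40 for SEC23B and −0.51 for SEC31A. These are descriptions over 9 libraries that share groups, depth and the trends above. They carry the choice of CNIH1 by its group pattern. Within carmine, CNIH1 was lowest in library B, where CNIH4, SAR1A and SAR1B were highest. With the transcript trends removed CNIH4, SAR1A and SAR1B had 0.87, 0.87 and 0.96, SEC13 0.68, and the other 5 genes −0.073 or less.

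Per kilobase of annotated transcript, the order of control levels was SEC23A (78.2 ± 2.45 CPM per kilobase, SD, n = 3), SEC13 (57.9 ± 2.13), SEC24A (52.4 ± 1.98), SEC31A (49.8 ± 1.75), SAR1A (30.6 ± 1.13), SAR1B (29.7 ± 1.31), SEC23B (17.7 ± 1.15), CNIH4 (16.2 ± 0.885), CNIH1 (14.4 ± 0.716) and SEC31B (2.38 ± 0.278). SAR1A and SAR1B did not differ beyond their spread, and the ranges of mean ± SD of SEC24A and SEC31A, and of SEC23B and CNIH4, touched. With carmine CNIH1 (18.5 ± 0.229) stood level with CNIH4 (18.4 ± 1.29) and above SEC23B (16.9 ± 0.593), and with carminic acid (12.7 ± 0.645) it stood below CNIH4 (15.7 ± 0.727) and SEC23B (17.9 ± 0.383). SEC31B was the lowest in all groups. The order rests on the annotated transcript: per kilobase of coding sequence SAR1B (334 ± 14.7) and SAR1A (308 ± 11.4) came first in the control, with CNIH4 (160.0 ± 8.75) and CNIH1 (159 ± 7.95) above SEC23A (141 ± 4.41).

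The 5 genes whose log2 CPM followed that of CNIH1 most closely over the 9 libraries, among the 9948 tested genes whose average log2 CPM was 3 or more, were OSTM1 (Pearson 0.982), TXNDC15 (0.977), NDFIP2 (0.971), TSEN15 (0.969) and SELENOT (0.969). As CNIH1 was chosen for its group pattern, their levels carry that choice. OSTM1 averaged 18.5 ± 0.266 CPM with carmine, 13.9 ± 0.4996 CPM with carminic acid and 14.9 ± 1.18 CPM in the control (SD, n = 3 each). SELENOT averaged 100.2 ± 4.90 CPM with carmine, 72.4 ± 5.56 CPM with carminic acid and 81.7 ± 2.76 CPM in the control. OSTM1, NDFIP2 and SELENOT have transcripts of low GC content like CNIH1, at 37.1%, 35.0% and 35.2%. Those of TSEN15 and TXNDC15 have a higher GC content, at 40.8% and 46.1%. With the trends removed the 5 closest were TSEN15, PSENEN, DCTN3, OSTM1 and ZNF552, so that OSTM1 and TSEN15 stood in both sets, and with RLE factors SERP1 took the place of SELENOT. The genes next to CNIH1 on chromosome 14 did not pass the test: CDKN3, 3342 bases away, had log2 fold changes of 0.025 with carmine and −0.26 with carminic acid, and GMFB, 33110 bases away, 0.077 and −0.16, with adjusted p of 0.939, 0.717, 0.773 and 0.717 by edgeR in that order.

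Further genes were read from 7 lists with 125 tested genes, chosen by function: other COPII genes, cargo receptors, COPI, SNAREs and tethers, cargo, SEC13 partners and the unfolded protein response. By edgeR 0 of them passed an adjusted p of 0.05 in any of the 3 comparisons; at an unadjusted p under 0.05 there were 14 with carmine, 3 with carminic acid and 10 between the colorants, where 11%, 6.43% and 8.9% of all tested genes had such a p. DESeq2 called 0, 0 and 2 of them (0.506%, 0.0375% and 0.481% of all tested genes), and limma-voom 0, 0 and 0 (0.268%, 0.212% and 0.0812%). All 22 other cargo receptors had a log2 fold change above 0 with carmine (51.7% of all tested genes did), with a median of 0.13 beside 0.0066 for all genes, and 14 of 22 did with carminic acid (48.1% of all genes). The fold changes of the 22 with carmine reached down to 0.0046, and their mean levels with carmine down to 0.573 CPM. The number with carmine was 20 when libraries were scaled by size alone, 21 with transcript trends and 18 with coding trends removed, and 19 without carmine library C, where the median was 0.087. With carminic acid it was 13 by library size alone, 20 with transcript trends and 14 with coding trends removed. By library size alone, 44.3% of all tested genes were above 0 with carmine and 41.8% with carminic acid. TMED2, a p24 cargo receptor, had the smallest p with carmine, at 287 ± 9.32 CPM with carmine against 249 ± 11.7 CPM in the control (log2 fold change 0.21, adjusted p = 0.384 by edgeR). With carminic acid it was ERGIC1, a receptor of the ER-Golgi intermediate compartment, at 472 ± 27.3 CPM with carminic acid against 429 ± 15.2 CPM in the control (0.13, adjusted p = 0.717).

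Without carmine library C, 7 of the 125 genes passed the threshold between the colorants, all higher with carmine: the cargo receptors LMAN1, ERGIC2, TMED2, TMED5 and TMED7, the SNARE BET1 and the tether USO1. Their log2 fold changes were 0.26 to 0.50, in the fit that called 4.21% of all genes. The 14 other COPII and exit-site genes, which hold the further SEC24 paralogs and the SEC16 scaffolds, had 6 log2 fold changes above 0 with carmine (median −0.013) and 7 with carminic acid (median 0.0027). With transcript trends removed these were 10 (median 0.034) and 11 (0.030), and with coding trends removed 12 (0.056) and 10 (0.034). By library size alone they were 4 and 6 (44.3% and 41.8% of all tested genes). With carmine the smallest p was that of PDCD6, a calcium-binding partner of SEC31A, at 67.7 ± 8.34 CPM against 59.1 ± 3.57 CPM in the control (0.20, adjusted p = 0.447 by edgeR). With carminic acid it was that of SEC24C, a cargo-binding inner coat subunit, at 307 ± 10.9 CPM against 286 ± 10.4 CPM in the control (0.10, adjusted p = 0.718).

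The COPI coat, which returns material from the Golgi to the ER, had 9 of 15 genes above 0 with either colorant (median 0.020 with carmine and 0.032 with carminic acid). With carmine it was 9 with transcript trends removed, 12 with coding trends removed and 7 by library size alone, and with carminic acid 12, 14 and 9. Scaled by library size alone, 44.3% of all tested genes were above 0 with carmine and 41.8% with carminic acid. Of 31 ER-Golgi SNAREs and tethers, 23 were above 0 with carmine (17 when scaled by library size alone) and 18 with carminic acid (22 with transcript trends removed) (medians 0.056 and 0.033). TRAPPC3, a subunit of the TRAPP tether, led with carmine at 50.2 ± 6.06 CPM against 42.6 ± 1.06 CPM in the control (0.24, adjusted p = 0.393 by edgeR). COPZ1 (0.14 with carmine, adjusted p = 0.518) and COPG1 (0.14 with carminic acid, adjusted p = 0.717), both COPI subunits, and the SNARE SEC22A (−0.22 with carminic acid, adjusted p = 0.717) had the smallest p of their lists and did not pass.

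**Figure D5:**
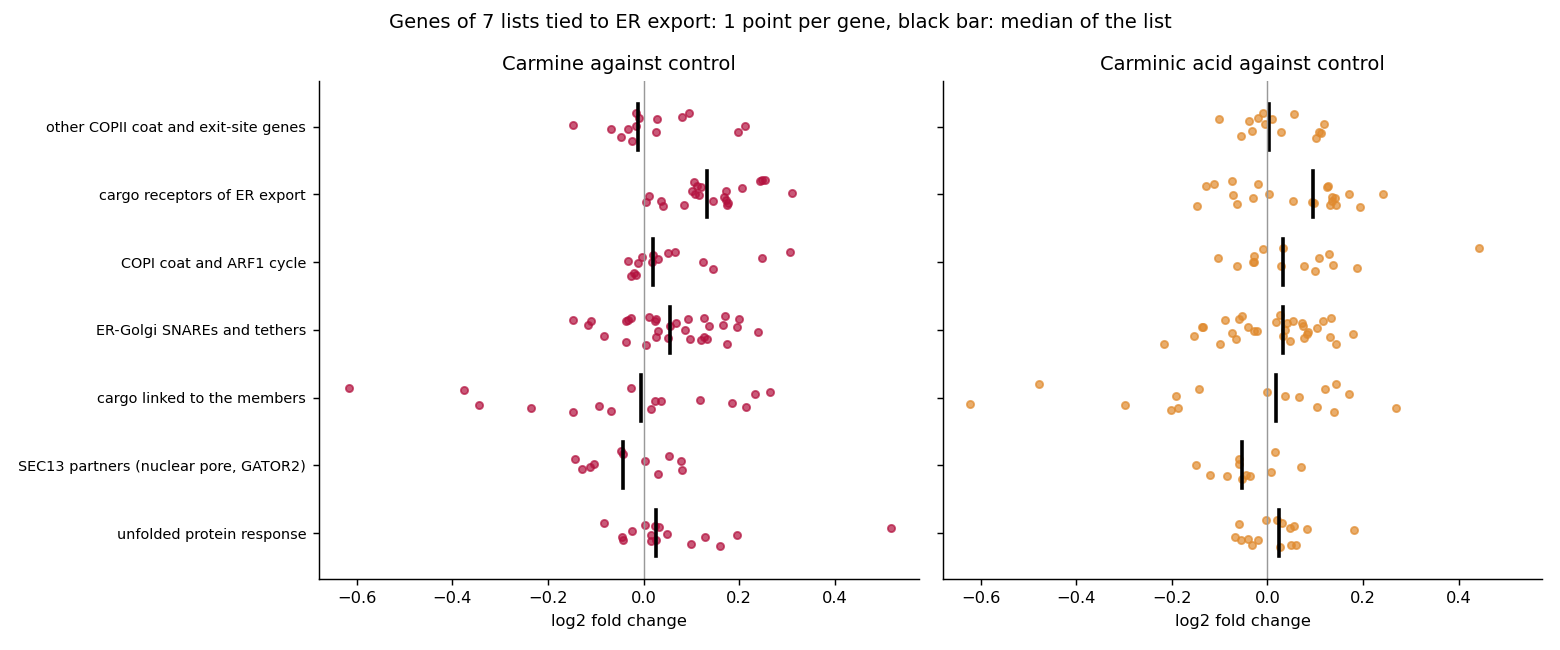
Log2 fold change (horizontal axes) of every tested gene of the 7 lists for carmine against control (left) and carminic acid against control (right), with 1 point per gene and the list's median as a black bar. All 22 cargo receptors lie above 0 with carmine and 14 with carminic acid, and 0 of the 125 genes passed an adjusted p of 0.05 in edgeR.

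Among 16 genes for cargo tied to the set, 8 were above 0 with carmine and 9 with carminic acid (medians −0.0049 and 0.018; −0.022 and −0.030 with transcript trends removed). EGFR, a receptor of TGF-alpha, had the smallest p with carmine, at 51.9 ± 5.36 CPM against 61.2 ± 2.83 CPM in the control (−0.24, adjusted p = 0.398 by edgeR). With carminic acid it was COL4A2, a basement membrane collagen, at 9.19 ± 0.942 CPM against 7.62 ± 0.393 CPM in the control (0.27, adjusted p = 0.717).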

How the data were processed

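RNA-seq of differentiated Caco-2 cells gave 1 table of raw counts per library, keyed by NCBI Gene ID. The file headers name HISAT2 as the aligner of the deposited counts. The submitters' processing notes list FastQC, HISAT, featureCounts and hg38, with no version. How strand and reads with several matches were handled, and which annotation was used, is not given in the sources used here. The members and lists were chosen with earlier results of these data known. Named genes are the 10 members, for every list and either colorant the gene of lowest p against control, and the 5 genes most correlated with CNIH1. Genes called under an alternative, and markers, are named as such.

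Tests used edgeR 4.0.16 in R 4.3.3 (filterByExpr, TMM factors, robust quasi-likelihood fit of all 9 libraries, two-sided, Benjamini-Hochberg adjustment over 16017 genes). A called gene has an adjusted p under 0.05. CPM are TMM-scaled. Coordinates are of GRCh38.p14; lengths, GC content and coding sequences come from GENCODE v29 (for 15453 tested genes, with a coding sequence for 14039). Trends with GC and length were removed per library by splines with 5 degrees of freedom, as offsets. DESeq2 1.42.0 and limma 3.58.1 gave alternatives. Fits were tested on simulated data. The main fit did not pair libraries by replicate letter. Deviations of same-lettered libraries correlated at −0.149 to 0.0952, and those of libraries with different letters at −0.162 to 0.156. The labels do not say what the letters mark, and these correlations cannot exclude shared plates or days.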

Additional observations from a re-analysis of the deposited data

How the results depend on the processing

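Of the 9 genes other than CNIH1, 0 were called in each comparison by edgeR. For carmine the count was 1 (SEC31B) with no filter beyond 1 count (adjusted p = 0.0369; 0.085% of genes called), with DESeq2 (0.00166; 0.506%), with limma-voom (0.0465; 0.268%), and with transcript trends removed (0.0167; 1.07%), where 1 list gene, TMED7, was called too. For carminic acid it was 1 (SEC31B) with limma-voom (0.0486; 0.212%) and with only the 6 libraries compared (0.0300; 0.31%). DESeq2 called 2 list genes between the colorants, TMED2 and TMED7. When each library was left out in turn, 0 to 1 members were called with carmine (0.00614% to 0.221% of all genes). The 1 was SEC31B without carmine library A (log2 fold change −0.80, adjusted p = 0.0468 by edgeR), where 0.0678% of all genes were called. With carminic acid 0 members were called (0% to 0.00615% of all genes). Between the colorants 0 to 2 members and 0 to 7 list genes were called (0% to 4.21% of all genes). The 2 and 7 came without carmine library C, where 4.21% of all genes were called. With the replicate letter as a block 0 members and 0 list genes were called in each comparison (0% of all genes). SEC31B then had −0.66 with carmine (adjusted p = 0.213 by edgeR).

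SEC31B kept its sign in every setting, at −0.80 to −0.59 with carmine and −0.63 to −0.48 with carminic acid. CNIH1 kept its sign too, at 0.30 to 0.40 with carmine and −0.23 to −0.043 with carminic acid. Not divided by length, its share of the pair with CNIH4 was 53.9% with carmine, 48.4% with carminic acid and 50.8% in the control. The reversals were of uncalled values near 0, and their cause was not tested. With carmine, SEC23A came to −0.016 by library size alone, and with coding trends removed SAR1A came to −0.0051 and SEC31A to 0.014. With carminic acid, SEC23B came to −0.014 and SEC31A to −0.00017 by library size alone; with transcript trends removed SAR1A came to 0.00023, SEC23A to 0.059 and SEC24A to 0.011; with coding trends removed CNIH4 came to 0.073, SAR1A to 0.011, SAR1B to 0.0021 and SEC23A to 0.062. Between the colorants SEC24A came to 0.0020 with RLE factors, 0.0053 with no filter, 0.0019 with DESeq2, 0.041 with limma-voom, 0.00059 with only 6 libraries and 0.014 with coding trends removed; SEC13 came to −0.045 with limma-voom; SEC23A came to −0.030 with transcript and −0.0044 with coding trends removed; SAR1A came to −0.017 with coding trends removed. Leaving out 1 library at a time gave reversals within these ranges: with carmine SEC23A −0.080 to 0.10 and SEC24A −0.21 to 0.038; with carminic acid SEC23A −0.060 to 0.038, SEC23B −0.047 to 0.052 and SEC31A −0.011 to 0.045; between the colorants SEC23A −0.072 to 0.11, SEC24A −0.13 to 0.12 and SEC13 −0.087 to 0.13. Depth limits SEC31B most, with 344 counts in its lowest library.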

Other observations

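Of 11 genes that share complexes with SEC13 in the nuclear pore and GATOR2, 5 had log2 fold changes above 0 with carmine (median −0.042; 51.7% of all tested genes were above 0) and 3 with carminic acid (median −0.054; 48.1%). With coding trends removed 7 were above 0 with carmine (median 0.021) and 4 with carminic acid. By library size alone 3 and 1 were above 0 (44.3% and 41.8% of all tested genes). By edgeR's test 0 were called in either comparison and 0 had an unadjusted p under 0.05. NUP160, a nuclear pore scaffold, had 77.5 ± 7.80 CPM with carmine against 85.6 ± 5.17 CPM in the control (SD, n = 3 each; log2 fold change −0.14, adjusted p = 0.538 by edgeR), and NUP107 of the same scaffold had 42.7 ± 3.47 CPM with carminic acid against 47.3 ± 1.82 CPM in the control (−0.15, adjusted p = 0.717). SEC13 itself had positive values with both colorants.

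Of 16 genes of the unfolded protein response, 12 were above 0 with carmine (6 when scaled by library size alone, 10 with transcript trends removed) and 9 with carminic acid (7 and 12). Of all tested genes, 51.7% were above 0 with carmine and 48.1% with carminic acid. By library size alone these shares were 44.3% and 41.8%. SDF2L1, an ER chaperone cofactor induced by ER stress, had 11.3 ± 3.58 CPM with carmine and 8.97 ± 0.745 CPM with carminic acid, against 7.90 ± 0.672 CPM in the control. Its log2 fold changes were 0.52 (adjusted p = 0.380 by edgeR) with carmine and 0.18 (adjusted p = 0.776) with carminic acid, so neither passed the test.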
